A study of Mus musculus with 4 samples.

Results

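The genes described here are 9 enzymes of the tricarboxylic acid (TCA) cycle, measured in epithelial cells of the mouse small intestine. The list was set by enzyme function: Cs, Idh3a, Idh3b, Idh3g, Ogdh, Dlst, Suclg1, Fh1 and Mdh2, which are 9 of the 32285 genes counted. The study carries in its title a mutation of mitochondrial DNA, epithelial dysfunction and acute colitis, and profiled single cells by droplet sequencing with the 10x 3' kit, in which each captured transcript carries a unique molecular identifier (UMI). Wild type mice were set beside mice with the G5081A point mutation in TrnA, the mitochondrial gene for alanine transfer RNA. All animals were 25 weeks old, and no sample label names a colitis treatment. There are 4 libraries, 2 per genotype. Set A holds a wild type library and a mutant library with a mutation load (the share of mitochondrial DNA copies that carry the change) of 77%, in titles that give no sex. Set B holds a wild type library and a mutant library with a load of 81%, both titled male. The 4 libraries are called wild type A, mutant A, wild type B and mutant B below. The cells had been stained for CD45, CD31, TER-119, CD326 and DAPI before sorting. The labels do not say that the libraries come from separate animals, so a p-value here covers library-to-library spread, which may be technical. The level of the transfer RNA and the mutation load itself are not analysed here.

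The TCA cycle runs in the mitochondrial matrix and burns the acetyl groups of sugars, fats and amino acids to carbon dioxide, handing electrons to the respiratory chain as NADH and FADH2. Its enzymes are encoded in the nucleus, whereas mitochondrial transfer RNAs serve the translation of the few respiratory chain subunits that mitochondrial DNA encodes. In the small intestine, stem cells and dividing progenitors sit in the crypts, and enterocytes, the absorptive cells of the villus, take up nutrients and use glutamine, which enters the cycle as 2-oxoglutarate, as a main fuel. Goblet, Paneth, tuft and enteroendocrine cells are the secretory lineages.

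In mm10 coordinates of the GENCODE vM21 annotation, Cs (ENSMUSG00000005683) lies at chr10:128337734-128362479 on the plus strand and encodes citrate synthase, which joins acetyl-CoA to oxaloacetate. Idh3a (ENSMUSG00000032279, chr9:54586334-54604661, plus strand), Idh3b (ENSMUSG00000027406, chr2:130279309-130284547, minus strand) and Idh3g (ENSMUSG00000002010, chrX:73778963-73786897, minus strand) encode the catalytic, the beta and the gamma subunit of the NAD-dependent isocitrate dehydrogenase. Ogdh (ENSMUSG00000020456, chr11:6291633-6356642, plus strand) and Dlst (ENSMUSG00000004789, chr12:85110833-85134845, plus strand) encode the decarboxylase and the succinyltransferase of the 2-oxoglutarate dehydrogenase complex. Suclg1 (ENSMUSG00000052738, chr6:73248382-73276911, plus strand) encodes the alpha subunit of succinyl-CoA ligase, Fh1 (ENSMUSG00000026526, chr1:175600374-175625635, minus strand) encodes fumarase, and Mdh2 (ENSMUSG00000019179, chr5:135778480-135790398, plus strand) encodes the mitochondrial malate dehydrogenase. Idh3b overlaps Nop56 and Fh1 overlaps Kmo on the opposite strand, and Cs overlaps Gm23182 on the same strand. Whether the counting used strand is not given in the sources used here, so the values of these 3 genes may include reads of the overlapping genes.

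Promoters of the members are shown because the 9 genes fell into groups with different cell type patterns, described further on. RefSeq promoter windows of the GRCm38.p6 build, from 250 bases before to 50 bases after a transcription start, matched 8 of the 9 symbols. Idh3a had no entry. Ogdh has 6 annotated starts, and the first is printed. Each window reads 5′ to 3′ on the gene's strand, and capitals mark a CRE, ETS or YY1 motif.
Ogdh, chr11:6291347-6291646, plus strand: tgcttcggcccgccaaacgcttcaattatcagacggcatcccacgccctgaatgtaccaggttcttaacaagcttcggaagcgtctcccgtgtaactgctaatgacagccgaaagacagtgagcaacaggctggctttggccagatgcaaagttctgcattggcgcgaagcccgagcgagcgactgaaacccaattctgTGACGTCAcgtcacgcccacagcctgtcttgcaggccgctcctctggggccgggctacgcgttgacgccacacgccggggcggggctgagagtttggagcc
Mdh2, chr5:135778399-135778698, plus strand: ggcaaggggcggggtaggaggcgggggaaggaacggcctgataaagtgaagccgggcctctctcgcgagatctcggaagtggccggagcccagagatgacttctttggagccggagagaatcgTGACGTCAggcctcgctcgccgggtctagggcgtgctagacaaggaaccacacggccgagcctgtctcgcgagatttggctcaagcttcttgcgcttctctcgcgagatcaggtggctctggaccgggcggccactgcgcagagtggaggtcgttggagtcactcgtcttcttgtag
Dlst, chr12:85110583-85110882, plus strand: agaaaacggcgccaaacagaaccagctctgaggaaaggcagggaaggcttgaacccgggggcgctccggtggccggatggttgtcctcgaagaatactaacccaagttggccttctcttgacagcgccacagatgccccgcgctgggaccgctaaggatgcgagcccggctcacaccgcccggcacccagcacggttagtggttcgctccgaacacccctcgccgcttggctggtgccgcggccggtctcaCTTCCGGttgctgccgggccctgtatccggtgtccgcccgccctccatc
Idh3b, chr2:130284402-130284701, minus strand: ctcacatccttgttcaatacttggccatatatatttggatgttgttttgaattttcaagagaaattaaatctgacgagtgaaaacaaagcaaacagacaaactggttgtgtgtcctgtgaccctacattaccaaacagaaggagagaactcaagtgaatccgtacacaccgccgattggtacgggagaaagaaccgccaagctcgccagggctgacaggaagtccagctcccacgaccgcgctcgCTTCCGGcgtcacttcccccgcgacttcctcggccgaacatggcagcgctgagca
Idh3g, chrX:73786848-73787147, minus strand: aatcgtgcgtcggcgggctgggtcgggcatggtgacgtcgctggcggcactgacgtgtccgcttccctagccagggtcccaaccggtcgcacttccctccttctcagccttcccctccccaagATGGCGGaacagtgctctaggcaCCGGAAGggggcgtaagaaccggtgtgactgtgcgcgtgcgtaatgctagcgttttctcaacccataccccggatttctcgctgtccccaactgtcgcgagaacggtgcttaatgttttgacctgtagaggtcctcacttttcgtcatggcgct
Motifs were searched on both strands as NRF1 (GCGCANGCG), ETS (CCGGAAG), ERR (AAGGTCA), YY1 (ATGGCGG), E-box (CACGTG), CRE (TGACGTCA) and CCAAT, and no 2 matches overlap in the 5 printed windows. The CRE letters, present in the Ogdh and Mdh2 windows, occur in 1.79% of the 32851 promoters of the table. The ETS letters occur in the windows of Idh3b, Idh3g and Dlst and in 8.86% of all promoters, and the YY1 letters in that of Idh3g, at later starts of Ogdh and in 4.05%. CCAAT is found in the first windows of Cs, Idh3b, Ogdh and Fh1 and in 37.4% of all. NRF1, ERR and E-box matches were found among the members only at later starts of Ogdh, against 6.25%, 4.72% and 7.15% of all promoters. Counting the first start of each gene, the windows held 14 to 28 CpG dinucleotides, against a median of 7 over all promoters, and 50.3 to 65.7% G and C against a median of 52.7%. The matches did not divide the members by their cell type patterns. Dlst shared the ETS letters with Idh3b and Idh3g, and Cs and Dlst held no CRE letters. Any relation of the motifs to the patterns was not tested. A match of letters is a description of the window and not a bound site.

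The libraries held 99772712 to 127796409 UMIs in 5974 to 13805 cell barcodes, and 4287 to 10065 barcodes per library passed the filters on genes, UMIs, mitochondrial share and doublets. Pairs of libraries had 26 to 60 barcodes in common, at most 0.484% of the smaller library. Clustering without the TCA cycle genes gave 23 clusters. Classes were named from marker genes, so that each name below stands for cells like that type (enterocyte-like and so on). Crypt cells are the stem and cycling classes together. One lymphocyte cluster was left out, and clusters 2 and 16 stayed without a name. Over all epithelial cells the summed T cell and intraepithelial lymphocyte markers came to 4.68 to 8.82 counts per 1000000 UMIs (CPM) and the fibroblast markers to 0 to 0.0871 CPM, with Lum, 1 of the 7, at 0 in every library. Paneth cell marker genes, given here as a measure of free RNA in the droplets, made up 0.108 to 1.36% of UMIs in the other named classes and 62.6 to 71.4% in Paneth cells. The cycling class was held mostly by different clusters in the 2 sets: cluster 7 gave 68.3% and 62.7% of its UMIs in the wild type and mutant library of set A, and cluster 3 gave 63.4% and 47.7% in those of set B.

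Summed over the 9 enzymes, enterocytes held the highest levels and enteroendocrine cells the lowest, on the scale described next. Levels are CPM of the UMIs summed per library and class, after TMM scaling (which corrects for the few genes that take a large share of a library) over all class sums. Since a 3' method counts transcript ends, levels are compared between cell classes and never between genes. The enzymes together reached 3065 to 3546 CPM in enterocytes over the 4 libraries, 2498 to 2799 CPM in absorptive progenitors and 1833 to 2094 CPM in cycling cells. Stem cells held 1214 to 1387 CPM, Paneth cells 1233 to 1450 CPM, goblet cells 1157 to 1348 CPM and tuft cells 872 to 1268 CPM. Enteroendocrine cells held 684 to 758 CPM, below every library of every other class. The sum gives most weight to the members with the most counts. In enterocytes Mdh2, Ogdh and Cs had means of 1320, 697 and 438 CPM. Idh3a, Idh3b, Idh3g, Suclg1 and Fh1 had their highest class means in cycling cells or absorptive progenitors, so the order of the sum is not that of each gene. A level is a scaled share of a class's transcripts and not an amount per cell. The place of Paneth cells depends on the scaling, with TMM factors of 0.251 to 0.364 in Paneth and 1.34 to 1.39 in enteroendocrine cells. Without scaling, Paneth cells held a smaller share than enteroendocrine cells in each library. In wild type A the enzymes gave 1509 of 3827763 UMIs in Paneth cells and 2185 of 2178962 UMIs in enteroendocrine cells. Enterocytes had fewer UMIs in all, and the 9 enzymes gave 16.8 to 23.3 UMIs per enterocyte against 21.5 to 53.9 per crypt cell.

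**Figure D1:**
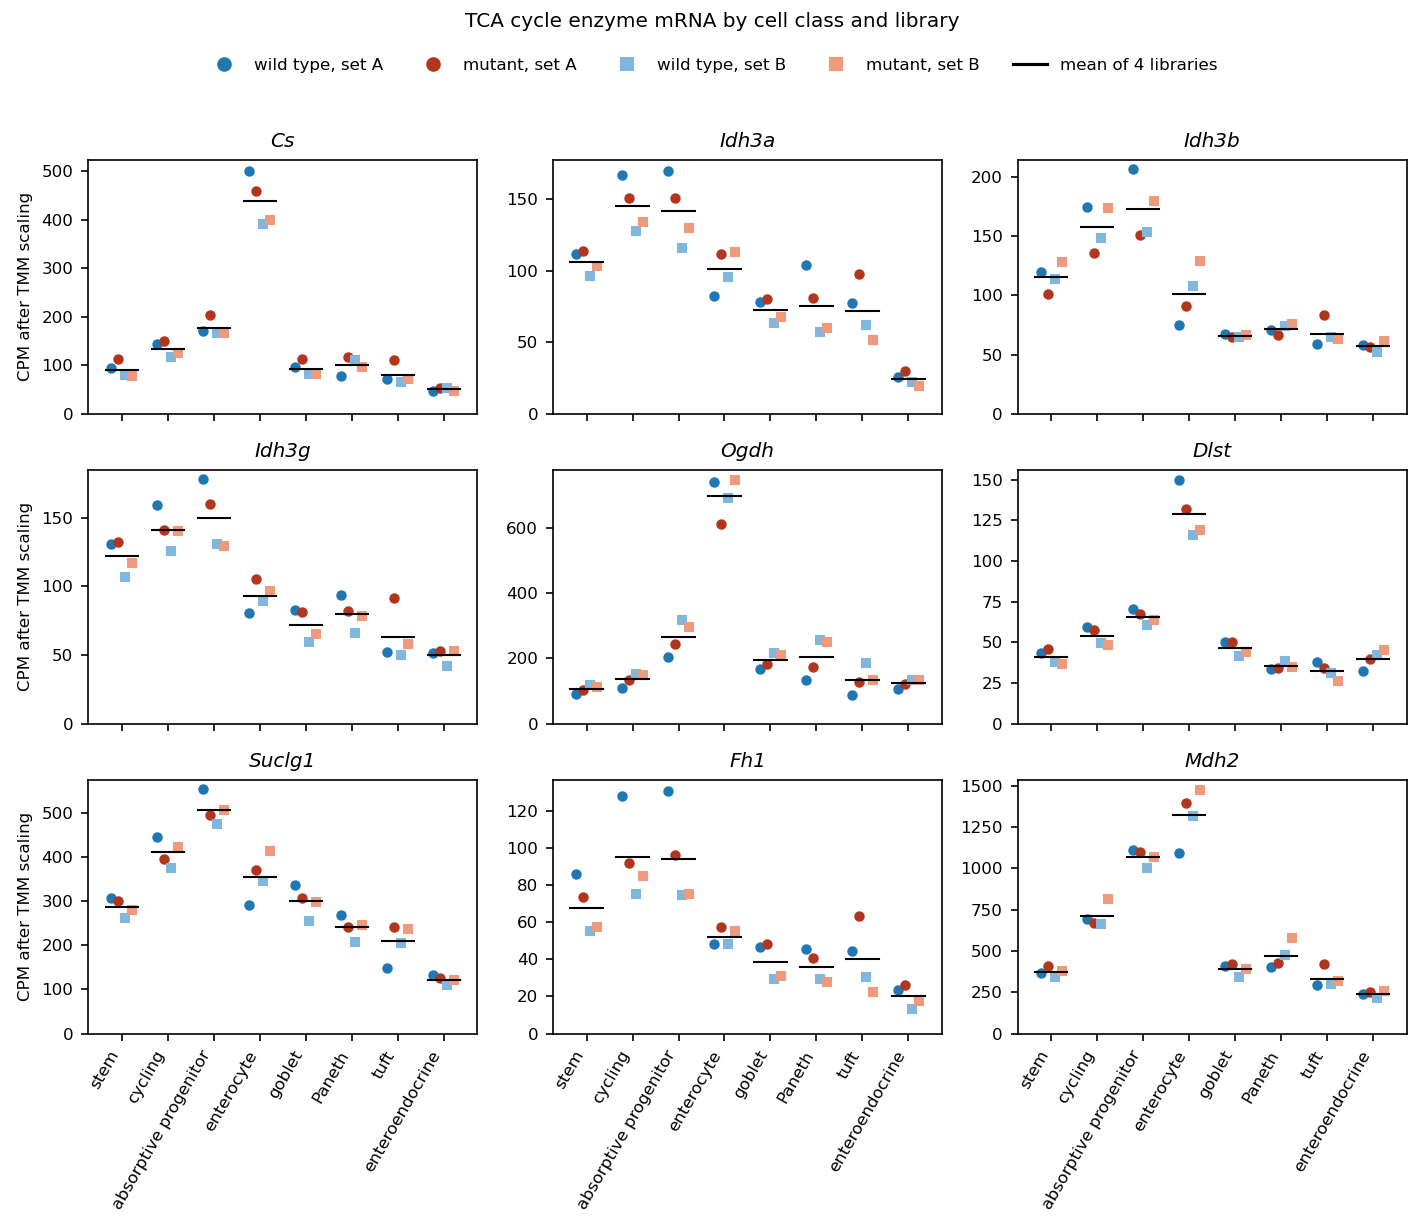
Levels of the 9 TCA cycle enzyme genes (TMM-scaled CPM, linear axis) in 8 epithelial classes, 1 point for each of the 4 libraries, with colour for genotype and shape for set. Cs, Ogdh and Dlst stand highest in enterocytes with no overlap with any other class, whereas Idh3a, Idh3b, Idh3g, Suclg1 and Fh1 stand highest in cycling cells or absorptive progenitors.

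Enterocytes were compared with crypt cells by edgeR's quasi-likelihood test with the library as a block and Benjamini-Hochberg adjustment over 14793 genes, and all 9 members passed the low-count filter in this and every other edgeR comparison below. Of the 9 enzymes, 4 were higher in enterocytes (Cs, Ogdh, Dlst, Mdh2), 4 were lower (Idh3a, Idh3b, Idh3g, Fh1) and Suclg1 did not pass. Since the 2 classes differ widely, 36.1% of all genes tested were called higher and 42.5% lower, so the shares of members called are near those of any genes. The median log2 difference was -0.04 over the members and -0.13 over all genes. The 4 lower calls depended on the cells taken as enterocytes. At a mitochondrial limit of 15%, 0 members were lower, beside 6227 of 14421 genes. At a limit of 50%, 0 were lower, beside 6287 of 15139 genes. With the deep enterocyte clusters described further on, 0 were lower, beside 41.8% of genes. Of the higher calls, that of Mdh2 turned to a lower one with the shallow clusters alone (-0.51).

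Cs, the entry enzyme, had 501 CPM in enterocytes of wild type A, 459 in mutant A, 392 in wild type B and 399 in mutant B. Its crypt cell levels were 122, 138, 101 and 107 CPM in the same order. Every enterocyte value lay above every crypt value, a 3.74-fold difference (log2 1.90 ± 0.10 SE, n = 4 libraries, adjusted p = 7.52e-08). Along the absorptive path the mean rose from 91 CPM in stem cells to 134 in cycling cells, 177 in absorptive progenitors and 438 in enterocytes, and the 4 libraries of each of the last 3 classes did not overlap with those of the class below. Paneth, goblet and stem cells (means 100, 92.8 and 91 CPM) overlapped with one another. Enteroendocrine cells had 46.9 to 53.3 CPM, the lowest of the classes after TMM scaling.

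Among the classes, the 3 isocitrate dehydrogenase subunits had their highest means in cycling cells and absorptive progenitors, and were lower in enterocytes as a whole. Idh3a, the catalytic subunit, had 82.6, 112, 95.7 and 113 CPM in enterocytes of wild type A, mutant A, wild type B and mutant B, and 144, 139, 114 and 122 CPM in crypt cells. Each library had its enterocytes below its crypt cells, with log2 ratios from -0.80 to -0.12 (edgeR estimate -0.37 ± 0.12 SE, n = 4, adjusted p = 0.0168). This is the weakest call of the 4 lower enzymes. Without wild type A the Idh3a difference was -0.17 with an adjusted p of 0.0571 in edgeR, and without mutant A it was -0.38 with an adjusted p of 0.0549. At mitochondrial limits of 15% and 50% it was 0.08 and -0.09, with adjusted p of 0.197 and 0.35.

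Idh3b gave 75.2, 91.1, 108 and 129 CPM in enterocytes against 151, 126, 133 and 156 CPM in crypt cells. Only mutant B of the enterocyte values reached into the crypt range, and the fitted difference was -0.51 ± 0.13 (SE, n = 4, edgeR adjusted p = 0.00458). Idh3g gave 80.7, 105, 89.4 and 96.9 CPM in enterocytes against 147, 138, 117 and 131 CPM in crypt cells, without overlap (-0.52 ± 0.11, edgeR adjusted p = 0.00119). In both genes wild type A showed the largest drop, with a ratio of -0.86 for Idh3g, and without that library the Idh3b difference was -0.28 (adjusted p = 0.0059). Neither gene was called at the 15% limit (Idh3b 0.07, Idh3g -0.04) or the 50% limit (Idh3b -0.01, Idh3g -0.15). Absorptive progenitors and cycling cells overlapped in all 3 subunits, with means of 142 and 145 CPM for Idh3a, 173 and 158 CPM for Idh3b, and 150 and 141 CPM for Idh3g. Stem cells followed at 106, 116 and 122 CPM.

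Ogdh, the decarboxylase at the point where glutamine carbon enters the cycle, showed the largest rise of the 9. It stood at 741, 612, 691 and 746 CPM in enterocytes and at 101, 124, 137 and 134 CPM in crypt cells of wild type A, mutant A, wild type B and mutant B. The lowest enterocyte library was well above the highest crypt library, and the difference was 5.64-fold (log2 2.49 ± 0.13 SE, n = 4, edgeR adjusted p = 5.43e-08). Absorptive progenitors came next, at 205 to 318 CPM, overlapping with Paneth cells (134 to 256 CPM). Goblet cells had 168 to 217 CPM with no overlap with cycling cells (108 to 152 CPM). Stem cells had the lowest mean, 106 CPM, which overlapped with that of enteroendocrine cells.

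Dlst, whose product carries the lipoyl arm of the same complex, also stood highest in enterocytes. Enterocytes had 150, 132, 116 and 119 CPM and crypt cells 52.6, 54.1, 44.3 and 43.9 CPM. No library overlapped, and the difference was 2.64-fold (log2 1.40 ± 0.09 SE, n = 4, edgeR adjusted p = 2.63e-07). Absorptive progenitors had 60.7 to 70.6 CPM, apart from both enterocytes and cycling cells (48.4 to 59.5 CPM). From cycling cells down to tuft cells (mean 32.4 CPM) each class overlapped with the next in the order.

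Suclg1, the alpha subunit that both forms of succinyl-CoA ligase use, was not called between enterocytes and crypt cells, and its call depended on the setting. Its enterocyte levels were 292, 370, 347 and 415 CPM and its crypt levels 387, 367, 326 and 369 CPM. The ratio was below 0 on the log2 scale in wild type A (-0.41) and above it in the other 3 libraries (0.01, 0.09 and 0.17), with an estimate of -0.04 (95% interval -0.30 to 0.23, edgeR adjusted p = 0.796). It was called higher at mitochondrial limits of 15% (0.42, adjusted p = 6.56e-05) and 50% (0.30, adjusted p = 0.00889) and with the automatic doublet threshold (0.19, adjusted p = 0.00798), and lower at Leiden resolution 0.5 (-0.58, adjusted p = 0.000277). Among the 8 classes its highest level was in absorptive progenitors, 475 to 554 CPM, above every library of the cycling class (375 to 447 CPM). Single clusters within the enterocyte class differed, with 524 to 685 CPM in cluster 11 and 93.8 to 153 CPM in cluster 14, both described further on.

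Fh1, fumarase, had 48.1, 57.5, 48.1 and 55.4 CPM in enterocytes and 110, 86.4, 66.4 and 74.3 CPM in crypt cells. All enterocyte libraries were below all crypt libraries (log2 -0.66 ± 0.13 SE, n = 4, edgeR adjusted p = 0.000879), and the crypt level was highest in wild type A. Without that library the difference was -0.43 (adjusted p = 0.000664), and at the 15% and 50% limits it was -0.08 and -0.18, not called. Cycling cells (75.3 to 128 CPM) and absorptive progenitors (74.8 to 131 CPM) shared the top of the order. Enteroendocrine cells, at 13.1 to 26.1 CPM, were below all other classes in mean after TMM scaling.

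Mdh2, which closes the cycle by remaking oxaloacetate, had 1095, 1396, 1317 and 1474 CPM in enterocytes and 554, 591, 524 and 646 CPM in crypt cells. The groups did not overlap and differed 2.27-fold (log2 1.18 ± 0.11 SE, n = 4, edgeR adjusted p = 4e-06). This call depended on the enterocyte clusters taken, described further on. With the deep ones alone Mdh2 was at 1.71, and with the shallow ones alone it was called lower (-0.51, edgeR adjusted p = 0.0109). Absorptive progenitors reached 1001 to 1112 CPM, overlapping with enterocytes. Cycling cells had 661 to 816 CPM and stem cells 344 to 407 CPM. Enteroendocrine cells had 216 to 256 CPM, the lowest of the 8 classes after TMM scaling.

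**Figure D2:**
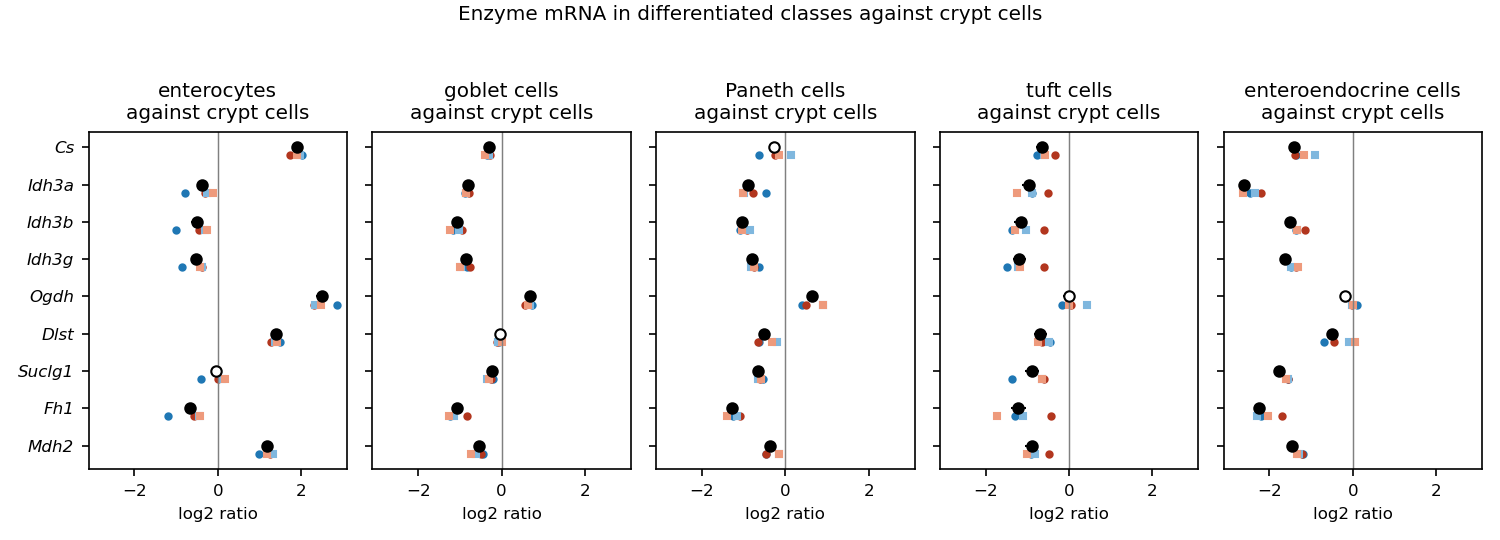
Log2 difference of each enzyme gene from crypt cells in 5 classes: edgeR estimates with standard errors in black (filled where called at an adjusted p under 0.05, open otherwise), with the ratios of the 4 libraries as small coloured marks beneath. Ogdh stands at 2.49 in enterocytes, and Idh3a reaches -2.61 in enteroendocrine cells.

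The secretory classes differed from crypt cells mostly downwards, and Ogdh was the exception in goblet and Paneth cells. In goblet cells Ogdh alone was higher (0.69 ± 0.05 SE on the log2 scale, n = 4, edgeR adjusted p = 3.55e-07), against 36.7% of all genes called higher. Another 7 enzymes were lower, against 37.2% of all genes, from Suclg1 at -0.24 and Cs at -0.30 to Idh3b at -1.06 and Fh1 at -1.08. Dlst, at -0.03 (95% interval -0.15 to 0.09, adjusted p = 0.618), did not pass. The members' median was -0.54 and that of all genes -0.03. Fitted without the library block, 5 enzymes were lower in goblet cells, beside 4011 of 14355 genes. Cs (-0.29, edgeR adjusted p = 0.105) and Suclg1 (-0.23, adjusted p = 0.114) no longer passed. Suclg1 also lost its call with genes centred within libraries before clustering (-0.11, adjusted p = 0.11) and with a mitochondrial limit of 50% (-0.11, adjusted p = 0.0705), and Cs with the automatic doublet threshold (-0.15, adjusted p = 0.0611).

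Paneth cells showed the same counts, with Ogdh higher (0.63 ± 0.10 SE, n = 4, edgeR adjusted p = 0.000216; 28.2% of all genes were called higher). The 7 lower enzymes, beside 29.8% of all genes, ran from Mdh2 at -0.37 and Dlst at -0.50 to Idh3b at -1.03 and Fh1 at -1.29. Cs, at -0.26, missed the threshold with an adjusted p of 0.0651. Antimicrobial transcripts fill most of a Paneth cell's UMIs, so the scale matters here. Without TMM scaling Ogdh had 42.8 to 79 CPM in Paneth cells against 122 to 155 CPM in crypt cells, so that its direction turned and every member was lower. Leaving out mutant A ended the call of Mdh2 (-0.31, adjusted p = 0.052), and leaving out wild type B brought Cs in (-0.37, adjusted p = 0.0136). Mdh2 was not called either without the library block (-0.35, adjusted p = 0.059), after centring (-0.16, adjusted p = 0.2) or at the 50% mitochondrial limit (-0.13, adjusted p = 0.268).

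In tuft cells, chemosensory cells of which each library held 35 to 117, no enzyme was higher and 8 were lower, beside 18% and 24.1% of all genes. The decreases ran from 0.65 for Cs (adjusted p = 0.000895 in edgeR) to 1.22 for Fh1 (adjusted p = 2.16e-05) on the log2 scale. Ogdh was at 0.00 (95% interval -0.30 to 0.31, adjusted p = 0.982). The tuft values rest on few counts, 24 to 37 UMIs per library for Dlst. The members' median was -0.90 and that of all genes -0.08.

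Enteroendocrine cells, the hormone-secreting lineage, had the lowest median of the 5 classes compared with crypt cells. Here 0 enzymes were higher and 8 lower, against 33.2% and 37.4% of all genes. Idh3a fell by 2.61 ± 0.11 (SE, n = 4, edgeR adjusted p = 1.06e-13), Fh1 by 2.26 ± 0.12 (adjusted p = 3.23e-12) and Suclg1 by 1.76 ± 0.09 (adjusted p = 1.77e-12). Idh3g was at -1.62, Idh3b at -1.50, Mdh2 at -1.45, Cs at -1.42 and Dlst at -0.51, all called. For Dlst the library ratios were -0.70 and -0.45 in set A but -0.08 and 0.05 in set B. Ogdh, at -0.19 (95% interval -0.36 to -0.01), had an adjusted p of 0.0535. Each fit takes its scaling from the 2 classes compared. In enteroendocrine cells the estimates were lower than most library ratios of the printed levels, and for Ogdh these ratios ran from -0.03 to 0.09. Idh3a, Fh1 and Dlst each had a library ratio below the estimate. The members' median was -1.50 and that of all genes -0.08.

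Enterocytes were not uniform, and the 9 enzymes differed between their clusters, in opposite directions between clusters 11 and 14. Clusters 11 (led by Reg1, Gsta1 and Fabp1) and 19 (led by Leap2, Fabp2 and Apoc3) had medians of 14920 and 7708 UMIs per cell. Clusters 5 (Abi3bp, Slc10a2), 14 (Slc5a12, Lct, Cyp3a11) and 15 (Slc28a2, Ada, Nt5e) had medians of 3189, 2524 and 2226. Mdh2 reached 2490, 2098, 1723 and 2021 CPM in cluster 11 but 485, 480, 443 and 516 CPM in cluster 14, in the order wild type A, mutant A, wild type B, mutant B. Idh3b had 225, 177, 191 and 226 CPM in cluster 11 against 21.1, 31.1, 26.6 and 28.5 CPM in cluster 14. Ogdh ran the other way, with 361, 433, 457 and 486 CPM in cluster 11 and 1201, 897, 1042 and 1295 CPM in cluster 14. Across the 4 libraries of the 2 clusters, Cs, Ogdh and Dlst were higher in cluster 14 without overlap, as were 35.1% of the 8860 genes compared. Idh3a, Idh3b, Idh3g, Suclg1, Fh1 and Mdh2 were lower without overlap, as were 30% of those genes. The other clusters did not follow depth alone. Idh3b in the deep cluster 19 had 100, 56.7, 83.4 and 81 CPM, below the crypt cells of each library and below cluster 11. Fh1 in cluster 19, at 39.4 to 56.1 CPM, and Idh3g, at 86.8 to 119 CPM, were also below the crypt cells of each library, and Idh3a was at 105 to 119 CPM, against 114 to 144 CPM in crypt cells. Ogdh in cluster 19, at 632 to 934 CPM, overlapped with the shallow clusters 5 (700 to 914 CPM) and 15 (549 to 1016 CPM), and Dlst in clusters 11 and 19, at 89.8 to 180 CPM, overlapped with all 3 shallow clusters.

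Some signs of cell condition differed between the same clusters. Cells of cluster 11 carried 5.45 to 7.51% mitochondrial UMIs, 10.2 to 15.3% ribosomal protein UMIs and 2959 to 5392 CPM of Malat1, a nuclear RNA. Cells of cluster 14 carried 17.2 to 20.5% mitochondrial UMIs, 1.1 to 3.71% ribosomal protein UMIs and 16226 to 24444 CPM of Malat1. Malat1 was higher in all 3 shallow clusters (18767 to 29239 CPM in cluster 5, 29040 to 48066 CPM in cluster 15) than in cluster 19 (4973 to 10004 CPM). The mitochondrial share did not divide the clusters by depth, with 4.24 to 6.52% in cluster 5, 9.89 to 10.2% in cluster 19 and 11.4 to 16.1% in cluster 15. Ribosomal protein UMIs made up 2.35 to 4.5% in cluster 5, 3.54 to 4.75% in cluster 19 and 1.17 to 3.59% in cluster 15. The part of these measures in the enzyme levels was not tested.

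**Figure D3:**
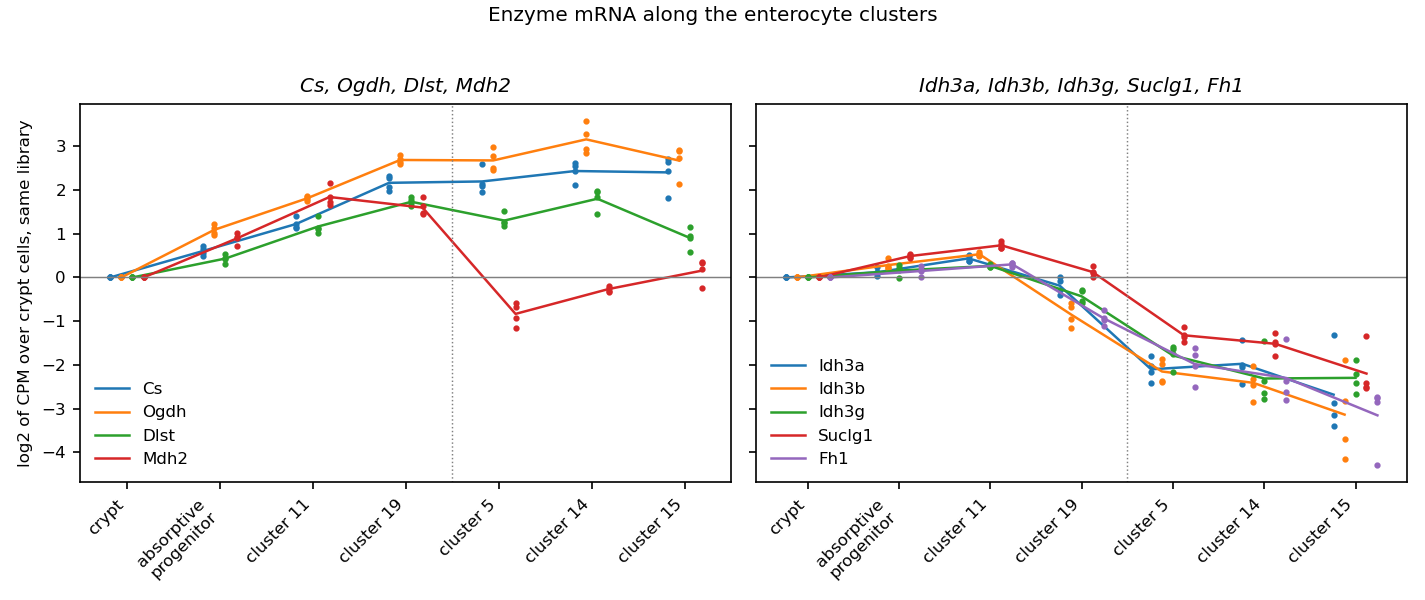
Level of each enzyme gene in 5 enterocyte clusters relative to crypt cells of the same library (log2 ratio of CPM), with points for the 4 libraries, a line at their mean, and a dotted line between the deep clusters 11 and 19 and the shallow clusters 5, 14 and 15. Cs, Ogdh and Dlst stay above 0 in all 5, and Idh3a, Idh3b, Idh3g, Suclg1 and Fh1 are below 0 in the shallow clusters, with Idh3b, Idh3g and Fh1 below 0 in cluster 19 too.

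The comparison with crypt cells was repeated with deep and with shallow enterocyte clusters alone, divided at a median of 5000 UMIs per cell, a split chosen after seeing the data. With deep clusters, 6 enzymes were higher (35.9% of all genes) and 0 lower (41.8%). Ogdh was at 2.27, Cs at 1.71, Mdh2 at 1.71, Dlst at 1.44, Suclg1 at 0.48 and Idh3a at 0.17 on the log2 scale, the last with an edgeR adjusted p of 0.0302. Idh3b (0.06, adjusted p = 0.407), Idh3g (-0.01, adjusted p = 0.938) and Fh1 (-0.14, adjusted p = 0.109) did not pass. With shallow clusters 3 were higher (34.8%) and 6 lower (43.8%): Idh3b at -2.50, Fh1 at -2.38, Idh3a at -2.25, Idh3g at -2.23, Suclg1 at -1.68 and Mdh2 at -0.51. Cs, Ogdh and Dlst were called higher in both fits, whereas Idh3b, Idh3g and Fh1 were called lower with the shallow clusters and not with the deep ones, and Idh3a, Suclg1 and Mdh2 were called higher with the deep clusters and lower with the shallow ones. The deep fit sums clusters that differ, since Idh3b had a mean of 205 CPM in cluster 11 and 80.3 CPM in cluster 19, Fh1 104 and 43.8 CPM, and Idh3g 160 and 99.1 CPM. The difference between the 2 fits was not tested. When cells with 15% or more mitochondrial UMIs were removed, 0 members were lower, beside 6227 of 14421 genes. With the limit raised from 30% to 50%, 0 were lower, beside 6287 of 15139 genes. The cells were clustered anew for each limit. At a coarser clustering (Leiden resolution 0.5) 5 were lower, beside 6555 of 14735 genes. They were Idh3b at -1.53, Fh1 at -1.49, Idh3g at -1.17, Idh3a at -0.99 and Suclg1 at -0.58.

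Goblet cells held a shallow cluster of their own, cluster 0, with a median of 4778 UMIs per cell. There Idh3a and Idh3b were both at -3.04 against crypt cells, Fh1 at -2.89 and Idh3g at -2.45, while Ogdh was at 1.44 (edgeR adjusted p = 5.89e-20). In the deep goblet clusters Idh3b was at -0.96, Fh1 at -0.99 and Ogdh at 0.53, and the calls of the 9 enzymes were those of all goblet cells.

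Within the crypt, cycling cells held more of most enzymes than stem cells did. Cs, Idh3a, Idh3b, Dlst, Suclg1 and Mdh2 were higher in cycling cells in every library than in any library of stem cells, as were 20.5% of the 9274 genes compared. No enzyme was lower without overlap, against 22.1% of genes. In Mdh2 stem cells had 365, 407, 344 and 378 CPM and cycling cells 693, 672, 661 and 816 CPM. Absorptive progenitors were above stem cells in the same 6 enzymes and in Ogdh, beside 31.2% of 9445 genes, and below them in none, beside 33.8%. Idh3g and Fh1 overlapped in both comparisons. These comparisons are descriptions, since the classes were built from the same cells. The cycling class includes cluster 10, with 3 cycling and 3 absorptive progenitor markers among its 50 leading genes. It gave 19.9 to 36.2% of the cycling UMIs. Its enzyme sum was 2105 to 2359 CPM, against 1527 to 1950 CPM in cluster 7. Clusters 3 and 21 had 1402 to 1896 and 2109 to 2962 CPM (3 libraries each). The part of cluster 10 in the cycling levels was not tested.

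Across 8 classes and 4 libraries (32 points, centred within library), the members formed 2 looser groups. Idh3b followed Idh3g and Fh1 with a Pearson correlation of 0.96 each, and Cs followed Mdh2 (0.94), Dlst (0.91) and Ogdh (0.88). Ogdh was near unrelated to Fh1 and Idh3g (0.14 each). The points share libraries, depth and scaling, so these values are descriptions. Against the mean of the other 8 enzymes, Mdh2 (0.93) and Suclg1 (0.90) were closest and Ogdh (0.52) was furthest. Of 8569 genes outside the lists, the profile most like the members' mean was that of Atp5g3 (0.99), a subunit of ATP synthase. Atp5o, Slc25a5, Slc25a3, Uqcrfs1, Tpi1, Psme2 and Cox7b followed at 0.98. Atp5o is another subunit of ATP synthase, Slc25a5 and Slc25a3 carry adenine nucleotides and phosphate, Uqcrfs1 and Cox7b belong to respiratory complexes, and Tpi1 is an enzyme of glycolysis.

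The other genes of the pathway were taken from 7 lists chosen by function. In enterocytes against crypt cells, 30 of their 65 tested genes were higher and 20 lower (edgeR, adjusted p under 0.05), with a median of 0.10. Of all genes 36.1% were higher and 42.5% lower, and these shares stand beside the enterocyte count of each list below. Of the 9 other TCA cycle enzymes 3 were higher and 2 lower. Sucla2, a partner of Suclg1, was at 0.88 ± 0.10 and the succinate dehydrogenase subunit Sdhb at 0.54 ± 0.11 (log2 ± SE, n = 4). Idh2, the NADP-dependent isocitrate dehydrogenase of mitochondria, was at -1.51 ± 0.14, with 33.6 to 58.6 CPM in enterocytes and 123 to 147 CPM in crypt cells. It was thus lower, as the Idh3 subunits were in this fit. At the 15% and 50% mitochondrial limits and with deep clusters alone, the Idh3 subunits were not called lower. For the genes of the 7 lists only the fit with all enterocytes is given here.

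Of 14 genes of pyruvate entry, 6 were higher and 4 lower. Pyruvate carboxylase Pcx, which makes oxaloacetate, had 27 to 50.7 CPM in enterocytes against 2.09 to 2.48 CPM in crypt cells (log2 3.90 ± 0.17). The pyruvate dehydrogenase kinases Pdk2 (2.21 ± 0.11) and Pdk4 (2.58 ± 0.29) and the phosphatase Pdp2 (0.96 ± 0.10) were also higher. Pdk4 was near the floor in set A, at 0.352 and 0.93 CPM in enterocytes and 0.254 and 0.0747 CPM in crypt cells. In set B it had 12.5 and 8.66 CPM against 2.09 and 1.24 CPM, wild type first in each pair. Of 7 cytosolic counterparts 6 were higher, with Pck1, the cytosolic phosphoenolpyruvate carboxykinase, at 5.36 ± 0.20, Mdh1 at 1.33 ± 0.10 and Got1 at 1.26 ± 0.12, and Acly, which splits citrate for lipid synthesis, was lower (-1.05 ± 0.10).

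Of 8 genes of glutamine use and anaplerosis, 4 were higher and 3 lower. Malic enzyme Me2 was at 1.13 ± 0.10. Pck2 (-2.90 ± 0.14) and Got2 (-1.30 ± 0.16) were lower. Of 6 tested carriers of TCA metabolites 5 were higher and 0 lower, led by the glutamate carrier Slc25a22 (3.58 ± 0.11), then Slc25a10 (0.72 ± 0.09), Slc25a11 (0.62 ± 0.11) and Slc25a1 (0.45 ± 0.10).

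Of 9 genes for lipoylation and assembly 1 was higher and 5 were lower, beside 36.1% and 42.5% of all genes. Lipt2, which attaches the octanoyl precursor of the lipoyl group, was at -3.39 ± 0.14, Lipt1 at -1.99 ± 0.24, Mcat at -1.51 ± 0.15 and Sdhaf1 at -1.19 ± 0.14, while Dlst, which carries that group, was higher. Of 12 regulators 5 were higher and 5 lower. Ppargc1a, a coactivator of mitochondrial genes, had 242 to 301 CPM in enterocytes and 17.7 to 25.2 CPM in crypt cells (3.64 ± 0.11), and Myc (-4.00 ± 0.15), Esrrg (-3.41 ± 0.16) and Pprc1 (-2.93 ± 0.15) were lower. In the secretory classes, 7 of the 9 other TCA cycle enzymes were lower than in crypt cells in goblet cells, 7 in Paneth cells, 8 in tuft cells and 9 in enteroendocrine cells, against 37.2%, 29.8%, 24.1% and 37.4% of all genes.

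**Figure D4:**
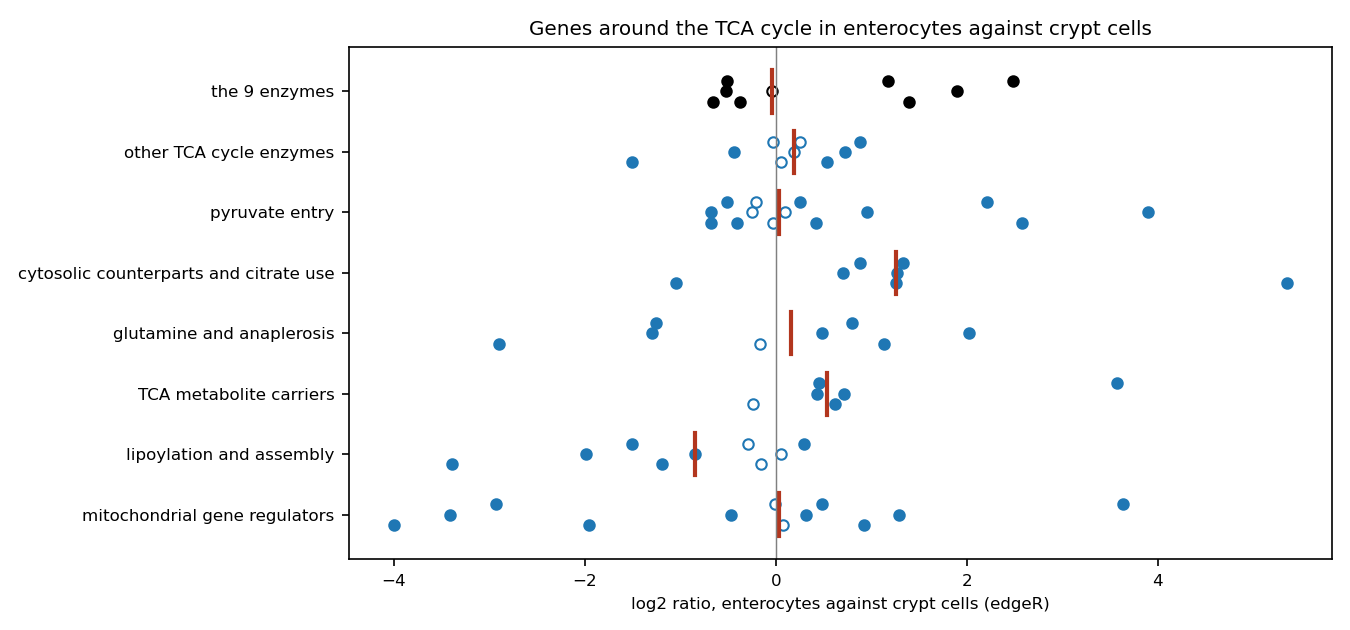
Log2 difference between enterocytes and crypt cells for the members and the 7 other lists of the pathway, 1 point per gene, filled where called by edgeR, with a red bar at the median of each list. The cytosolic counterparts have a median of 1.26 and the lipoylation and assembly genes one of -0.85.

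Mutant and wild type libraries did not differ detectably in any of the 9 enzymes. Over all epithelial cells, 0 of 16700 genes were called by edgeR (0%), in enterocytes 0 of 12092 (0%) and in crypt cells 0 of 14360 (0%). At an unadjusted p under 0.05 there were 114, 253 and 115 genes, and DESeq2 called 9, 0 and 3 genes, none of them a member. A fit that also held the set called 77 genes in crypt cells (0.536%), 28 in enterocytes (0.232%) and 27 over the whole epithelium (0.162%), again with 0 members. Each genotype has 2 libraries, and the intervals below show what differences this design leaves possible.

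Over all epithelial cells Mdh2 had 600 and 639 CPM in wild type A and B and 629 and 780 CPM in mutant A and B. Its mutant to wild type difference was 0.21 (95% interval -0.28 to 0.69), with 0.07 within set A and 0.29 within set B. Cs had 135 and 149 CPM in wild type and 151 and 166 CPM in mutant libraries, a difference of 0.18 (-0.23 to 0.58), with 0.16 and 0.15 within the sets. Ogdh had 163 and 262 CPM in wild type and 173 and 291 CPM in mutant libraries. The sets stood further apart in Ogdh than the genotypes did, and its interval was the widest of the 9 (0.15, -0.68 to 0.97). The other estimates were 0.09 for Idh3a, 0.08 for Suclg1, 0.07 for Idh3g, 0.07 for Dlst, 0.02 for Idh3b and -0.07 for Fh1. Within the sets, 4 of the 9 enzymes were higher in the mutant in both and 0 lower in both, where 20.8% of all genes were higher in both and 29.5% lower in both.

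**Figure D5:**
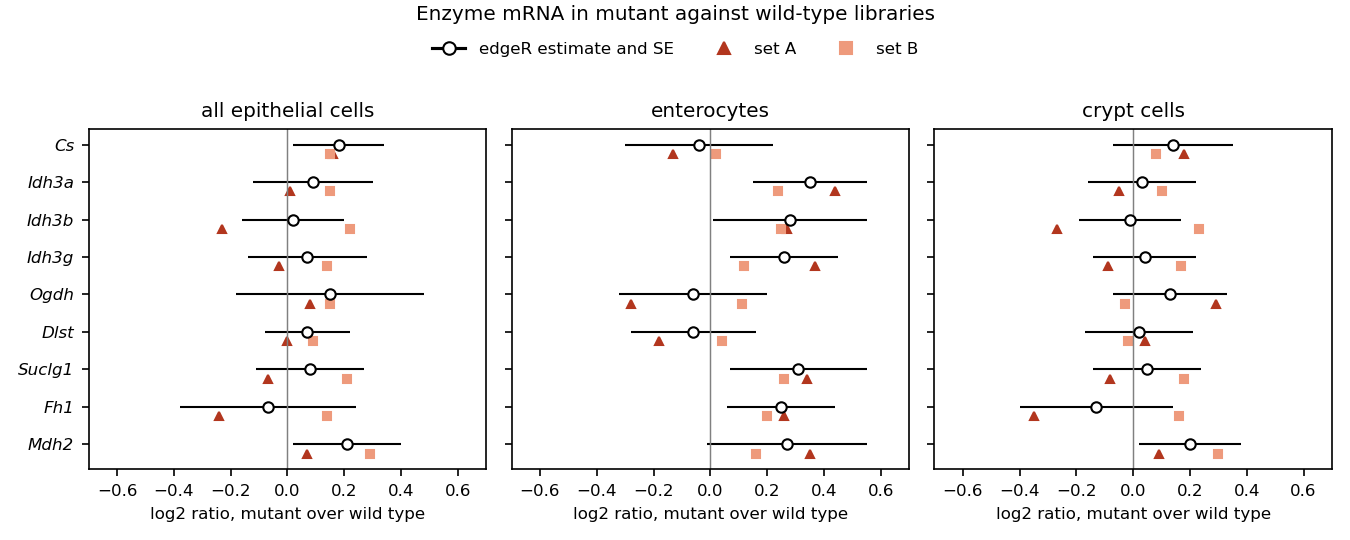
Log2 difference between mutant and wild type for each enzyme gene in 3 sets of cells (all epithelial, enterocytes, crypt): edgeR estimates with standard errors as open circles, and the ratio within set A (triangles) and set B (squares). In Idh3b over all epithelial cells the sets lie on either side of 0, at -0.23 and 0.22.

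In crypt cells the estimates ran from -0.13 for Fh1 (95% interval -0.78 to 0.52) to 0.20 for Mdh2 (-0.24 to 0.65). In enterocytes Idh3a was at 0.35 (-0.12 to 0.82), Suclg1 at 0.31, Idh3b at 0.28, Mdh2 at 0.27, Idh3g at 0.26 and Fh1 at 0.25, while Cs (-0.04), Ogdh (-0.06) and Dlst (-0.06) were near 0. The 6 positive enzymes were higher in the mutant in both sets, as were 27.6% of all genes (30.7% were lower in both), and they are the 6 that were higher in cluster 11 than in cluster 14. Cluster 11 made up different shares of the class. It gave 16.2% and 39.2% of enterocyte UMIs in wild type A and B, and 37.3% and 45.7% in mutant A and B. Wild type A was thus the low library, and wild type B lay above mutant A. The deep cluster 19 gave 27.5% in each wild type library, 34% in mutant A and 26.5% in mutant B. Within cluster 11 Idh3a had 204 and 147 CPM in wild type and 181 and 172 CPM in mutant libraries, so that the genotypes overlapped. The part of the cluster shares in the enterocyte values was not tested. In deep clusters alone the 9 estimates ran from -0.09 for Dlst to 0.10 for Ogdh. In shallow clusters alone Idh3a was at 0.42 ± 0.40 (SE), Suclg1 at 0.31 ± 0.26, Idh3b at 0.28 ± 0.27 and Fh1 at 0.23 ± 0.47, and Mdh2 and Idh3g were both at 0.05, with 0 members called in either fit. The genotype difference did not differ detectably between enterocytes and crypt cells either: 0 of 14793 genes passed the edgeR interaction test (0%, with 308 at an unadjusted p under 0.05, and 0 by DESeq2). The members' interaction estimates ran from -0.20 for Ogdh to 0.33 for Fh1, with standard errors of 0.20 to 0.26.

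By class, both mutant libraries lay above both wild type libraries in 5 of the 9 enzymes in enterocytes and in 0 to 3 elsewhere, and in none did both lie below. In enterocytes these were Idh3a, Idh3g, Suclg1, Fh1 and Mdh2 (the genotypes did not overlap in 36.1% of genes, with the mutant higher in 15.8% and lower in 20.2%). In tuft cells they were Idh3g, Suclg1 and Mdh2 (27.6% in either direction, 14.2% higher), in enteroendocrine cells Idh3g and Mdh2 (26.3%, 13.1% higher), and in stem cells Mdh2 (21.8%, 10.6% higher). There were 0 such enzymes in cycling cells (16.6%), absorptive progenitors (17.8%), goblet cells (17.5%) and Paneth cells (21.7%). Mdh2 recurs most often, with 292 and 300 CPM in wild type and 420 and 320 CPM in mutant tuft cells, and 241 and 216 CPM against 254 and 256 CPM in enteroendocrine cells. With 2 libraries per genotype these are values without a test. They are ranges of classes that share libraries, so they are not independent of one another.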

How the data were processed

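The authors deposited raw UMI counts per gene and cell barcode. Per the file headers, Cell Ranger 7.0.0 wrote the files of set A and Cell Ranger 7.1.0 those of set B, so software version and set cannot be told apart. The build is mm10, per the submitters' processing notes. For intron use, strand use and cell calling, no setting is given in the sources used here. Barcodes with at least 500 genes, 1000 UMIs and under 30% mitochondrial UMIs were kept, and the highest doublet scores were removed at 0.8% per 1000 barcodes, since the automatic threshold called 0 to 14.4%. Cells were clustered in scanpy 1.11.5 (2000 variable genes, 50 components, 15 neighbours, Leiden resolution 1) without the 75 genes of the lists. A cluster was named where at least 3 markers of a class were among its 50 leading genes, unless another class had more markers at the very top of that list. Cluster 2 held 6 cycling and 4 stem markers, but 1 and 3 at the top, so it stayed unnamed. A cluster of low depth for its libraries, with no marker of its own class at the top, was to stay unnamed too. UMIs were summed per library and class and tested with edgeR 4.0.16 in R 4.3.3 (TMM, its low-count filter, Benjamini-Hochberg adjustment, called under 0.05), which had been tested on simulated data. Class comparisons had the library as a block, since each library gives both classes compared. Standard errors and 95% intervals come from the quasi-likelihood F statistic. Ratios of single libraries use CPM with 0.5 added. Genotype comparisons had no block, and the set of a library, as its titles and headers give it, was a term in an alternative. DESeq2 1.42.0, other scaling, no filter, other cell limits and left-out libraries were also tried.

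All 9 members are named in the text. From each other list the rule takes up to 4 genes with the smallest p in enterocytes against crypt cells and up to 2 in genotype over all epithelial cells, and beyond the lists the 8 genes of at least 10 CPM whose profile is most like the members' mean, and the leading genes of clusters. The 2 genotype genes of each list gave no call and are counted only, and 2 other genes that the rule names are not reported here. The members and lists were chosen with earlier results of these data known. Within-library depth limits rare classes most: tuft cells gave 24 to 37 UMIs of Dlst per library.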

Additional observations from a re-analysis of the deposited data

Results flagged for a closer look

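In 2 of the 45 comparisons of a member with crypt cells, 1 library stood apart from the other 3 by Dixon's test, which chance does in about 1 of 20 groups (5%). For Idh3g in enterocytes, the log2 ratio to crypt cells was -0.86 in wild type A against -0.39, -0.39 and -0.44 in mutant A, wild type B and mutant B. The edgeR estimate without that library was -0.35 (adjusted p = 0.000926). For Suclg1 in tuft cells, the ratio was -1.37 in wild type A against -0.60, -0.66 and -0.64 in the same order, and the estimate without that library was -0.69 (adjusted p = 0.00155). Wild type A held 35 tuft cells, the fewest of the 4, and its enterocytes took 16.2% of their UMIs from cluster 11, the lowest share. The part of these measures in the ratios was not tested.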

How the results depend on the processing

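Of 1026 values of single members recomputed under the alternatives, 923 kept their direction and their side of the threshold. Of the 76 that reversed, 31 were genotype estimates in enterocytes, 14 in crypt cells and 11 over all epithelial cells, and none of these passed a test. The others were differences from crypt cells, with 13 in enterocytes, 4 in goblet cells and 3 in tuft cells. The number of genes called between genotypes rose from 0 with the set as a replicate block (27 over all epithelial cells, 28 in enterocytes, 77 in crypt cells), with DESeq2 (9 over all epithelial cells, 3 in crypt cells) and without a low-count filter (24 in enterocytes, and 4 in the interaction). Leaving out 1 library gave 0 to 133 in enterocytes (133 without wild type B, 2 without mutant A) and 1 to 9 in the interaction, with a lone library assumed to vary like the other group. The block changed no call of a member between genotypes, and the causes were not tested. The 4 members lower in enterocytes than in crypt cells became 0 at mitochondrial limits of 15% and of 50% and with deep clusters alone. They became 2 with the automatic doublet threshold and 5 at Leiden resolution 0.5. Of all genes, 6292 of 14793 were lower in the main fit. The counts were 6227 of 14421 at 15%, 6287 of 15139 at 50% and 6033 of 14430 with deep clusters. They were 6124 of 14963 with the automatic threshold and 6555 of 14735 at resolution 0.5. Idh3a then turned to 0.08 (15%) and 0.17 (deep), Idh3b to 0.07 and 0.06. Suclg1 turned to 0.03 with DESeq2 and with RLE scaling, 0.01 (cluster 2 as crypt) and, called higher, 0.42 (15%), 0.30 (50%), 0.19 (automatic doublets) and 0.48 (deep), and Mdh2 to -0.51 (shallow). Dlst in goblet cells turned to 0.02 (15%), 0.06 (50%, and centring) and 0.01 (deep). Ogdh in tuft cells turned to -0.06 without the filter and -0.02 with automatic doublets.

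Between genotypes in enterocytes, in the order 15%, 50%, automatic doublets, resolution 0.5 and deep clusters, Cs turned to 0.15, 0.13, 0.10, 0.06 and 0.05, Ogdh to 0.14, 0.15, 0.10, 0.04 and 0.10, and Fh1 to -0.21, -0.21, -0.16, -0.02 and -0.03. At 15%, 50% and resolution 0.5, Idh3b turned to -0.09, -0.12 and -0.09 and Idh3g to -0.06, -0.07 and -0.06. Dlst turned to 0.07, 0.07 and 0.03 at 15%, 50% and automatic doublets. In crypt cells Idh3b turned to 0.00 without the filter and Idh3g to -0.00 with centring. Leaving out 1 library gave these ranges between genotypes over all epithelial cells: Idh3a -0.08 to 0.31, Idh3b -0.09 to 0.15, Idh3g -0.12 to 0.30, Ogdh -0.24 to 0.51, Suclg1 -0.06 to 0.25 and Fh1 -0.39 to 0.38. In enterocytes the ranges were Cs -0.21 to 0.16, Idh3b -0.01 to 0.58, Ogdh -0.22 to 0.08 and Dlst -0.23 to 0.15. In crypt cells they were Cs -0.08 to 0.34, Idh3a -0.13 to 0.22, Idh3b -0.15 to 0.12, Idh3g -0.12 to 0.22, Ogdh -0.07 to 0.36, Dlst -0.16 to 0.19, Suclg1 -0.07 to 0.19 and Fh1 -0.45 to 0.30. Suclg1 in enterocytes against crypt cells ranged from -0.09 to 0.15 and Ogdh in tuft cells from -0.11 to 0.11. The settings that use cluster depth, or count cluster 2 as crypt, were chosen after seeing the data. Depth limits the rare classes most, and 2 libraries per genotype limit the rest.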
